A study of Drosophila melanogaster with 7 samples.

Results

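The genes described here encode the machinery that retrieves synaptic vesicles after release and holds them in pools at fly nerve terminals. They were taken by name from the deposited table of normalized counts: Synj, endoA, shi, lap, Dap160, stnB, Syn, Syngr, Chc and Eps-15. Of these 10 genes, 9 stood on intact lines of the table, among 14476 genes in all, and each of the 9 passed the minimum mean of 10 normalized counts used for testing. The endophilin gene endoA was not found on an intact line and is not analysed here.

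Brains dissected from Drosophila melanogaster were profiled by sequencing the 3' ends of their transcripts. The 2 knockdown libraries came from flies of the strain Actin-GAL4 UAS-sh-circMbl, in which a short hairpin RNA targets circMbl, the circular transcript of muscleblind (mbl). The 5 control libraries came from the strain Actin-GAL4 UAS-sh8MM, which expresses a hairpin with 8 mismatches. Both strains carry the Actin-GAL4 driver, which is active in nearly all cells and not in neurons alone, and every library title names day 3. The labels used here give neither the number of brains in a library nor whether libraries came from separate flies. The p-values therefore cover only library-to-library spread, and that spread may be technical. The comparison asks how the brain levels of these transcripts differ when circMbl is targeted.

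After a vesicle fuses with the terminal membrane, clathrin and its adaptors gather the vesicle proteins into a coated pit. The pit is bent by membrane-binding proteins and cut off by dynamin, and the coat is shed once a lipid phosphatase has changed the membrane lipids that hold it. Refilled vesicles are then kept in clusters, from which synapsin releases them during activity. In flies this cycle is best known from shibire, the dynamin gene, whose temperature-sensitive alleles stop synaptic transmission within a short time by blocking retrieval.

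The libraries held between 3260649 and 5546121 counted reads in the lines used. The titles give both knockdown libraries the lane code L2, control replicates 2 and 3 the lane code L5, and control replicates 1, 4 and 5 the lane code L7, and the date codes of knockdown and control also differ. Genotype, lane and date can therefore not be told apart, and differences of the members are given against all controls and against the L5 and the L7 controls. Differences from L5 and from L7 controls come from a fit of 3 groups (knockdown, L5, L7). Its spread is that within lane codes, so its p-values leave out differences between lanes. Between these 2 lane codes of the same control genotype, 2057 of 7287 genes tested differed (28.2%; limma, adjusted p under 0.05). The title numbers 2 and 3 each occur in both control lane codes, and the labels do not say whether same-titled controls share RNA. The 5 control libraries may therefore come from fewer than 5 separate samples. Transcripts of mbl held 2770 and 2304 normalized counts in knockdown replicates 1 and 2, against 3323, 3602, 4122, 3341 and 3430 in control replicates 1 to 5, giving -0.49 ± 0.14 on the log2 scale, short of the threshold (limma, adjusted p = 0.0694). In the fit of 3 groups mbl was lower than in L5 controls (-0.61, adjusted p = 0.00456) and than in L7 controls (-0.41, adjusted p = 0.0105). Reads from polyadenylated ends do not measure the circular RNA itself.

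Synj was the member that fell in knockdown brains, by 1.52-fold. It encodes synaptojanin, the phosphoinositide phosphatase that lets newly formed vesicles shed their clathrin coat (FBgn0034691, chromosome 2R from 22080176 to 22085767 on BDGP6, the assembly also called dm6). Synj held 2329 and 2151 normalized counts in knockdown replicates 1 and 2, against 3774, 2818, 3245, 3545 and 3753 in control replicates 1 to 5. Both knockdown libraries lay below all controls, and among the controls the 2 L5 libraries were the lowest. The means were 2240 ± 126 in knockdown brains (SD, n = 2) and 3427 ± 401 in control brains (SD, n = 5), a log2 difference of -0.61 ± 0.15 (SE; limma, adjusted p = 0.0464). In a fit of 3 groups, Synj was lower in knockdown than in L5 controls (-0.43 ± 0.10, limma adjusted p = 0.0142) and than in L7 controls (-0.72 ± 0.09, adjusted p = 0.000269). The L5 controls were themselves lower than the L7 controls, by -0.29 ± 0.09 (adjusted p = 0.0425). The call against all controls lies close to its threshold and ended without either knockdown library (limma, adjusted p = 0.231 and 0.258 without replicates 1 and 2), and without control replicate 1, 3, 4 or 5 (0.0896, 0.0565, 0.0935 and 0.104). It also ended with no filter on the mean (0.0617), with limma's voom (0.0521), with L5 controls only (0.0545) and with replicate blocks, within a range of 0.000306 to 0.258 over all alternatives.

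In these whole-brain libraries fewer cells of a type and less RNA per cell cannot be told apart. The 6 neuron markers (elav, brp, Syt1, nSyb, para and Syx1A) summed to between 42480 and 49334 normalized counts in knockdown libraries, against 33342 to 38339 in controls. One of them passed the test, the vesicle SNARE gene nSyb, which was higher in knockdown brains, and without it the sums overlapped (31288 to 36874 in knockdown libraries, against 29108 to 33038 in controls). Of the 6 neuron markers, nSyb and elav lay above every control in both knockdown libraries, and 0 lay below all controls. For elav these were 1840 and 1794 normalized counts, against at most 1701 in controls (limma, adjusted p = 0.356). The 4 glial markers found, of 6 listed, summed to between 74488 and 81499 in knockdown libraries, against 56325 to 70679 in controls. Most of that sum was Gs2, without which the sums were 3581 to 3783 in knockdown libraries, against 3449 to 4960 in controls. None of the 4 glial markers passed the test, and alrm and moody lay below all controls in both knockdown libraries. The 5 fat body markers found, of 6 listed, summed to between 43995 and 50158, against 14938 to 35906, and the 5 muscle markers to between 477 and 638, against 614 to 1085. All 5 fat body markers lay above every control in both knockdown libraries, and 2 of them rose past the test. Of the 5 muscle markers, 1 fell past the test. The 4 hemocyte markers summed to between 240 and 402, against 342 to 557. None of the markers found stood at 0 in any library. The part of these marker levels in the differences of Synj and the other members was not tested.

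**Figure D1:**
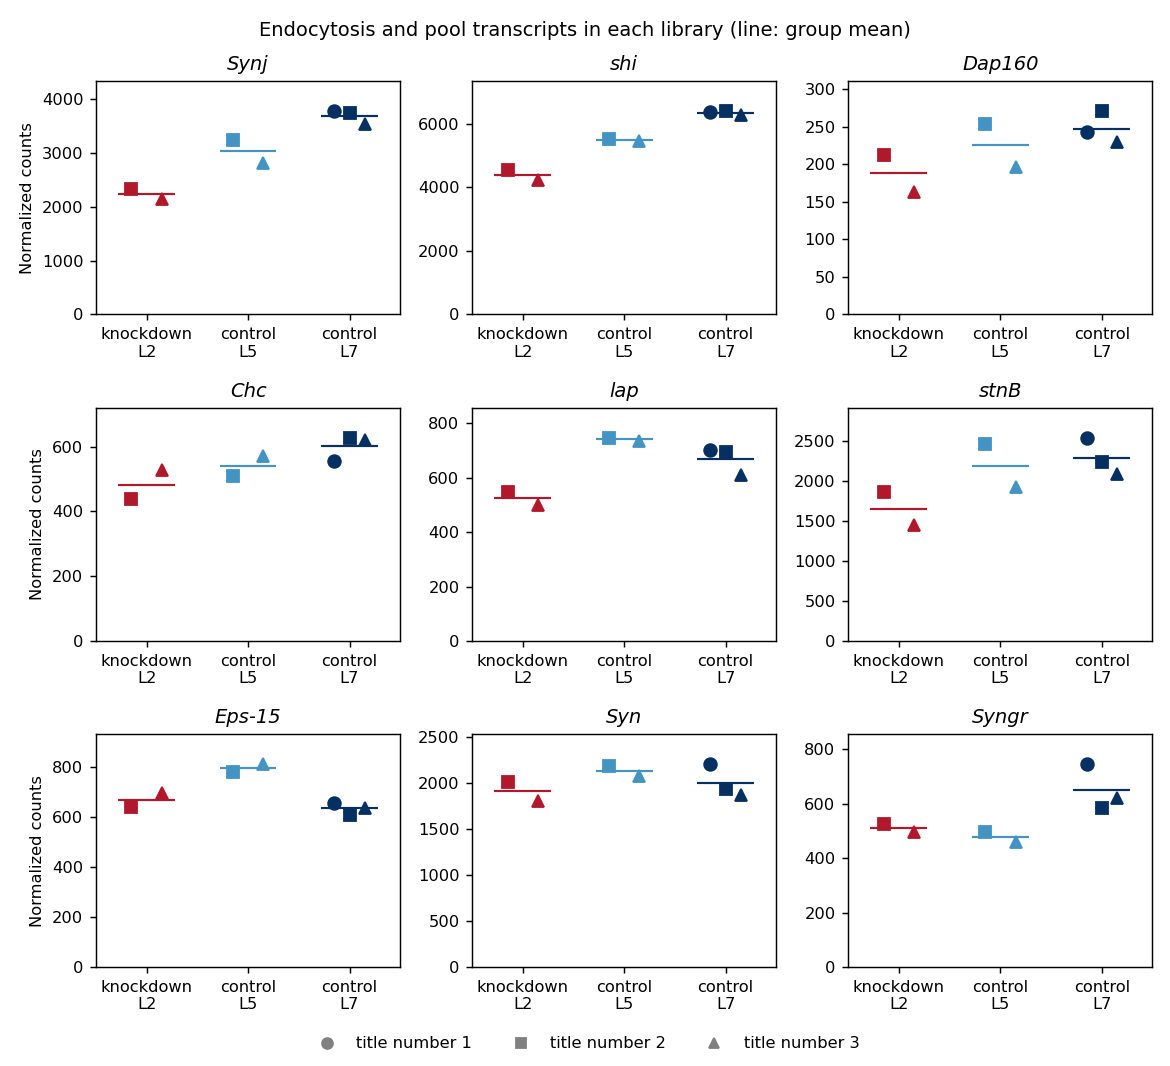
Normalized counts of the 9 members in each library (vertical axes, each from 0), with knockdown libraries (red) left of L5 controls (light blue) and L7 controls (dark blue). Marker shapes give the title number and lines the group means. Both knockdown libraries lie below all 5 controls for Synj, shi, lap and stnB, and Syngr and Eps-15 differ more between the control lane codes than between knockdown and all controls.

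Of the genes that cut the vesicle neck, shi had the next largest difference among the members, and it did not pass against all controls. It encodes dynamin, the GTPase that pinches off the coated pit (FBgn0003392, X from 15892116 to 15906716). It held 4545 and 4236 normalized counts in knockdown replicates 1 and 2, against 6372, 5463, 5539, 6290 and 6391 in control replicates 1 to 5. The groups did not overlap, and the L5 controls lay between the knockdown and the L7 controls. The log2 difference was -0.45 ± 0.13 (SE; limma, adjusted p = 0.0716), with a 95% interval of -0.74 to -0.16 before adjustment. In the fit of 3 groups shi was lower than in L5 controls (-0.33 ± 0.09, limma adjusted p = 0.0319) and than in L7 controls (-0.53 ± 0.09, adjusted p = 0.000905). When only the L5 controls were fitted with the knockdown libraries, shi did not pass (-0.33 ± 0.13, limma adjusted p = 0.117).

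Dap160 encodes the fly intersectin, a scaffold that ties dynamin, synaptojanin and Eps-15 together at the site of retrieval (FBgn0023388, 2L from 21134439 to 21142347). It was the least abundant member, with 134 to 328 counted reads a library. It held 212 and 163 normalized counts in knockdown libraries, against 243, 197, 253, 229 and 270 in controls. The groups overlapped, since knockdown replicate 1 stood above control replicate 2. The log2 difference of -0.35 ± 0.17 did not pass (limma, adjusted p = 0.23), nor did the differences from L5 (-0.26, adjusted p = 0.294) and L7 controls (-0.41, adjusted p = 0.0624).

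Among the coat and adaptor genes, lap and stnB lay lower in both knockdown libraries than in any control, while Chc and Eps-15 overlapped. The gene lap encodes the clathrin assembly protein AP180, which sets vesicle size (FBgn0086372, 3R from 7186994 to 7200941). It held 548 and 501 normalized counts in knockdown libraries, against 702, 735, 746, 610 and 695 in controls. Unlike Synj and shi, the L5 controls of lap were the higher ones, although the lane codes did not differ past the test (0.15 ± 0.10, L5 minus L7; limma, adjusted p = 0.291). The log2 difference was -0.41 ± 0.13 against all controls (adjusted p = 0.0877), -0.50 ± 0.11 against L5 controls (adjusted p = 0.00956) and -0.35 ± 0.10 against L7 controls (adjusted p = 0.0195).

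The gene stnB encodes stoned B, an adaptor of the stonin family that sorts synaptotagmin into vesicles (FBgn0016975, X from 22980722 to 23004648). It held 1856 and 1448 normalized counts in knockdown libraries, against 2537, 1926, 2456, 2086 and 2241 in controls. The gap between the groups was narrow, 1856 in knockdown replicate 1 against 1926 in control replicate 2. The log2 difference was -0.45 ± 0.16 (limma, adjusted p = 0.113), and it passed against L7 controls (-0.48 ± 0.14, adjusted p = 0.0218) and not against L5 controls (-0.41 ± 0.15, adjusted p = 0.0788). In flies stoned A and stoned B are made from one transcript, and stnB overlaps stnA on the same strand in the annotation, so these reads cannot be assigned to stnB alone.

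The clathrin heavy chain gene Chc (FBgn0000319, X from 15827986 to 15835490) encodes the main strut of the coat. It lies 56626 bases from shi, its nearest neighbour among the members. Chc held 438 and 529 normalized counts in knockdown libraries, against 556, 573, 509, 621 and 627 in controls. The lower knockdown library stood below every control and the other one did not. Its log2 difference of -0.26 ± 0.14 did not pass (limma, adjusted p = 0.281), and against L7 controls it missed the threshold narrowly (-0.32 ± 0.11, adjusted p = 0.0504).

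Eps-15 encodes an EH-domain scaffold that brings adaptors and dynamin to the pit (FBgn0035060, 2R from 24768314 to 24775265). It held 639 and 693 normalized counts in knockdown libraries, against 655, 809, 778, 637 and 608 in controls. The knockdown values lay inside the range of the controls, at the level of the L7 libraries and below the L5 libraries. The log2 difference was -0.06 ± 0.15 against all controls (limma, adjusted p = 0.843), with a 95% interval of -0.39 to 0.28. Its sign turned with the lane code, with -0.25 ± 0.10 against L5 and 0.07 ± 0.09 against L7 controls, neither past the test (adjusted p = 0.0922 and 0.57). The L5 controls were higher than the L7 controls by 0.33 ± 0.09 (adjusted p = 0.0206).

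The pool genes overlapped between the groups. Syn encodes synapsin, the phosphoprotein that tethers vesicles in the reserve pool (FBgn0004575, 3R from 10190689 to 10222442). It held 2012 and 1810 normalized counts in knockdown libraries, against 2201, 2075, 2187, 1874 and 1933 in controls. The log2 difference was -0.10 ± 0.12 (limma, adjusted p = 0.646), and its 95% interval ran from -0.38 to 0.18. Timp, a metalloprotease inhibitor gene, overlaps Syn on the other strand, and the sources used here do not give the strand setting of the counting.

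Syngr encodes synaptogyrin, a membrane protein of the vesicle itself (FBgn0033876, 2R from 13841761 to 13846255). It held 526 and 498 normalized counts in knockdown libraries, against 745, 459, 499, 622 and 587 in controls. The knockdown values fell between the lane codes, slightly above or at the L5 controls and below all L7 controls. The log2 difference of -0.16 ± 0.19 against all controls did not pass (limma, adjusted p = 0.626). Against L7 controls Syngr was lower (-0.34 ± 0.11, adjusted p = 0.0418), and against L5 controls the difference was 0.10 ± 0.13 (adjusted p = 0.623). The L5 controls were lower than the L7 controls by -0.44 ± 0.11 (adjusted p = 0.0164), the largest difference between lane codes among the members.

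**Figure D2:**
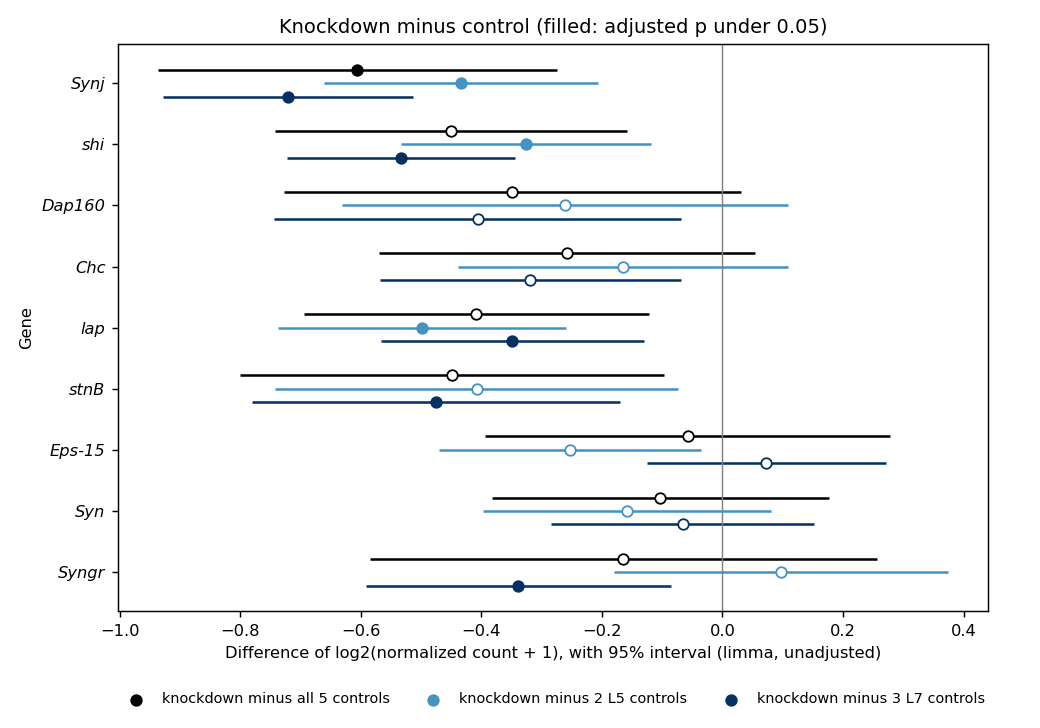
Differences of log2(normalized count + 1) for the 9 members (horizontal axis), with 95% intervals from limma before adjustment, against all 5 controls (black), the 2 L5 controls (light blue) and the 3 L7 controls (dark blue). Filled points passed an adjusted p of 0.05. All 9 black points lie below 0, from -0.61 for Synj to -0.06 for Eps-15, and Synj, shi and lap are filled against both lane codes.

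Across the members, 1 of 9 fell and none rose against all controls, beside 2.63% of all genes tested that fell and 3.47% that rose, 6.11% in all (limma, adjusted p under 0.05). At an unadjusted p under 0.05 there were 4 of 9, Synj, shi, lap and stnB, against 1857 of 7287 genes. These are also the 4 members with both knockdown libraries below all controls, a separation that 15.9% of genes showed in that direction and 16.6% in the other. The median log2 difference of the members was -0.35, and that of all genes tested was -0.02. All 9 differences were below 0, as were 51.9% of those of all genes. With quantile normalization all 9 stayed below 0, from -0.55 to -0.02. These members were measured in the same 7 libraries, so their shared direction is not a count of independent events. They were also chosen with earlier results of these data known, so their shares and medians beside those of all genes are not a test.

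Against L5 controls, 3 of 9 members were lower past the test (Synj, shi and lap) and none was higher, beside 9.47% of genes lower and 12.1% higher. Against L7 controls, 5 of 9 were lower (Synj, shi, lap, stnB and Syngr) and none was higher, beside 18.5% of genes lower and 15% higher. Synj, shi and lap were lower against both, which 5.24% of genes were, while 5.83% were higher against both. These 2 comparisons share the knockdown libraries, and their p-values leave out differences between lanes, although knockdown and controls have different lane codes. When only the L5 controls were fitted, lap passed and Synj and shi did not (limma, adjusted p = 0.0269, 0.0545 and 0.117). The median log2 difference of the members was -0.26 against L5 and -0.35 against L7 controls, while that of all genes was 0.00 and -0.02. Between the lane codes themselves, Eps-15 was higher and Synj and Syngr were lower in L5 controls, 3 of 9 members past the test, beside 11.3% of genes higher and 16.9% lower.

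The spread between control libraries was larger than counting error for each member. Counting alone would give a coefficient of variation of 1.23% for shi, which was observed at 7.79%, and 1.64% for Synj, which was observed at 11.7%. For Dap160, with the fewest reads, the 2 values were 6.23% and 11.6%. Syngr had the largest spread among controls, 19.2%, where counting gives 4.02%.

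Values of the members are also given by the library number in the titles. Each lane code holds a library titled 3 and a library titled 2, and 7 of 9 members were lower in the library titled 3 in each of the lane codes. For all genes that share was 51.7% in knockdown (L2), 53.8% in L5 controls and 52.4% in L7 controls. Dap160 differed by -0.37, -0.36 and -0.23 on the log2 scale in knockdown, L5 and L7 libraries, and stnB by -0.36, -0.35 and -0.10. Eps-15 was higher in the library titled 3 in all of them, by 0.12, 0.05 and 0.07. The differences of shi in L5 and L7 controls (-0.020 and -0.023), of lap in L5 controls (-0.020) and of Chc in L7 controls (-0.014) were near 0. Chc and Syngr changed sign in L7, Syngr to 0.084 and Chc only to that value near 0. The sign of the knockdown pair matched that of the L5 pair for 9 of 9 members, beside 59.2% of all genes, and that of the L7 pair for 7 of 9, beside 50.7%. There is 1 library per title number and lane code, so these are values without a test, and they were singled out after they were seen. The rhodopsin gene ninaE held 1920, 1840 and 2072 normalized counts in the knockdown, L5 and L7 libraries titled 3, against 599, 445 and 459 in those titled 2. The 4 photoreceptor markers found, of 5 listed, summed to 5812, 5619 and 5592 in the knockdown, L5 and L7 libraries titled 3, against 3474, 3711 and 3455 in those titled 2. One of them, norpA, did not follow the sum in knockdown and L5 libraries. It held 1945, 2068 and 2412 in the knockdown, L5 and L7 libraries titled 3, against 1982, 2200 and 2318 in those titled 2. The part of these markers in the members' values was not tested.

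**Figure D3:**
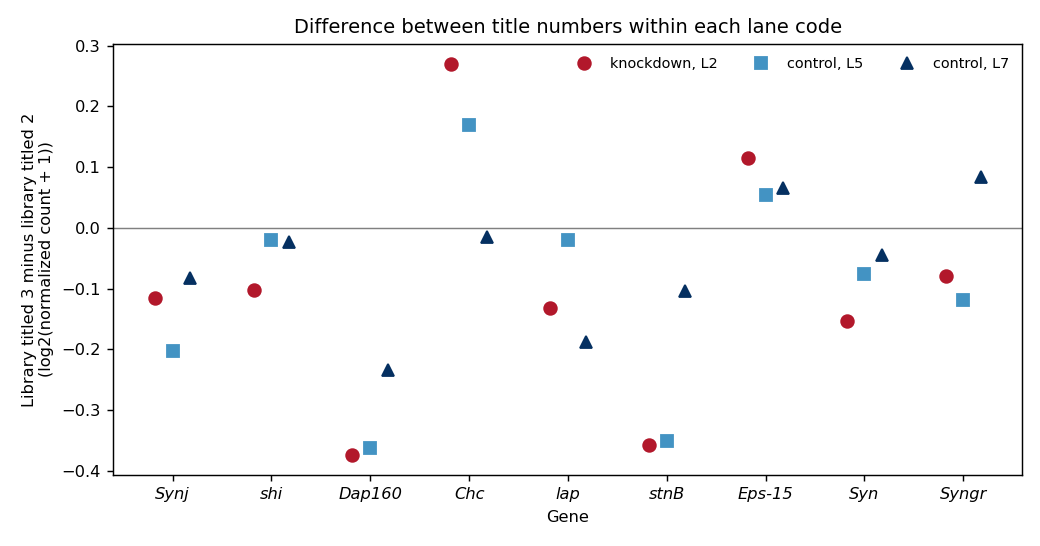
Difference of log2(normalized count + 1) between the library titled 3 and the library titled 2 (vertical axis) for each member, within knockdown L2 (red circles), control L5 (light blue squares) and control L7 (dark blue triangles). Dap160 and stnB lie below 0 and Eps-15 lies above 0 in all of them, and Chc and Syngr change sign in L7, where Chc is near 0.

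The other genes of the pathway were read from a list of 42, of which 38 were found and tested. Of these, 1 rose (CaMKII), 1 fell (Gga) and 36 did not pass, with a median log2 difference of -0.06, beside 3.47% of all genes that rose and 2.63% that fell. Against both lane codes of controls 3 of 38 were lower (Gga, AP-2alpha and aux) and 1 was higher (CaMKII), beside 5.24% and 5.83% of all genes.

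Among coat and adaptor genes, 1 of 8 fell, Gga, an Arf-dependent clathrin adaptor of the Golgi and endosomes. It held 177 and 156 normalized counts in knockdown libraries, against 225, 263, 290, 251 and 239 in controls, a log2 difference of -0.60 ± 0.14 (SE; limma, adjusted p = 0.0445). The groups did not overlap, and the call ended without control replicate 1, 3, 4 or 5 or either knockdown library and also with quantile normalization, with voom and with replicate blocks, with adjusted p from 0.00945 to 0.274 over the alternatives. Lst8 overlaps Gga on the other strand. The AP-2 subunit gene AP-2alpha, which links clathrin to cargo, had -0.31 ± 0.12 against all controls (limma, adjusted p = 0.14) and was lower than in L5 (-0.33, adjusted p = 0.0468) and L7 controls (-0.29, adjusted p = 0.0379). The clathrin light chain gene Clc had 0.18 ± 0.12 (adjusted p = 0.372), a sign opposite to that of Chc, and the adaptor gene AP-1-2beta had 0.38 ± 0.17 (adjusted p = 0.198), with 0.20 against L5 (adjusted p = 0.343) and 0.51 against L7 controls (adjusted p = 0.0106). Clc overlaps CG6951 on the same strand and CG17233 on the other, so its reads may not be its own alone.

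Among genes that bend and cut the membrane, 0 of 8 passed limma, with 1 at an unadjusted p under 0.05 and 0 by voom. The most abundant, the F-BAR gene nwk, held 3783 ± 115.3 normalized counts in knockdown brains (SD, n = 2), against 3925 ± 253 in control brains (SD, n = 5). The F-BAR gene Cip4 had a log2 difference of -0.05 ± 0.13, and amphiphysin (Amph) had 0.18 ± 0.26 (limma, adjusted p = 0.839 and 0.708). Amph was higher than in L5 controls (0.63, adjusted p = 0.00675), with -0.12 against L7 controls (adjusted p = 0.46). In flies Amph is known for shaping muscle membranes and is not needed for vesicle retrieval.

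Among uncoating and phosphoinositide genes other than Synj, 0 of 8 passed limma, with 1 at an unadjusted p under 0.05 and 0 by voom. Hsc70-4, the chaperone that pulls the clathrin coat apart, held 6723 ± 9.88 normalized counts in knockdown brains (SD, n = 2), against 6457 ± 1378 in control brains (SD, n = 5). Hsc70-4 was higher than in L5 controls (0.40, limma adjusted p = 0.0337), with -0.13 against L7 controls (adjusted p = 0.398). The cofactor of Hsc70-4, auxilin (aux), named after its values were seen, came closest to the threshold, with a log2 difference of -1.11 (limma, adjusted p = 0.0522). It held 582 and 499 in knockdown libraries, against 1446, 778, 862, 1505 and 1484 in controls, and was lower past the test against L5 (-0.60, adjusted p = 0.00356) and L7 controls (-1.45, adjusted p = 1.09e-05). DhpD, CG14636 and CG31516 overlap aux on the other strand. The lipid kinase gene PI4KIIIalpha had -0.33 ± 0.36 against all controls (limma, adjusted p = 0.606), and was higher than in L5 controls (0.34, adjusted p = 0.0358) and lower than in L7 controls (-0.77, adjusted p = 0.000152).

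The gene fwe encodes flower, a vesicle membrane protein linked to calcium entry and retrieval. It held 5451 and 4840 normalized counts in knockdown libraries, against 3580 and 4384 in L5 controls and 18589, 16685 and 15447 in L7 controls. The log2 difference from L5 controls was 0.37 (limma, adjusted p = 0.0672) and that from L7 controls was -1.71 (adjusted p = 1.12e-05). The sign of the fwe difference changed with the lane code of the controls, and only the difference from L7 controls passed the test.

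Among recycling and sorting genes, 0 of 8 passed limma, with 2 at an unadjusted p under 0.05 and 0 by voom. The early endosome GTPase gene Rab5 had -0.33 ± 0.24, the retromer gene Vps26 had -0.42 ± 0.15 and skywalker (sky), a Rab35 GTPase-activating protein gene, had 0.14 ± 0.14 (limma, adjusted p = 0.421, 0.125 and 0.588). Against L7 controls Rab5 (-0.60, adjusted p = 0.00142) and Vps26 (-0.55, adjusted p = 0.00111) were lower, while against L5 controls they had 0.06 and -0.22 (adjusted p = 0.725 and 0.149).

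Among pool and vesicle-associated genes, 1 of 6 rose, CaMKII, the calcium-dependent kinase. It held 1366 and 1376 normalized counts in knockdown libraries, against 859, 735, 789, 877 and 867 in controls, a log2 difference of 0.73 ± 0.12 (limma, adjusted p = 0.0153). The groups did not overlap, and the call ended without either knockdown library and with replicate blocks, with adjusted p from 0.000384 to 0.163 over the alternatives. Rab3, the vesicle GTPase gene, held 3815 and 3057 in knockdown libraries, against 9440, 3695, 4375, 8595 and 8249 in controls, which put the knockdown libraries at the level of the L5 controls (limma, adjusted p = 0.16 against all, 0.232 against L5 and 3.68e-05 against L7 controls). The synapse-associated gene Sap47 had a log2 difference of -0.29 ± 0.21 and the protein kinase A gene Pka-C1 had 0.02 ± 0.12 (adjusted p = 0.435 and 0.948). Sap47 was lower than in L7 controls (-0.50, adjusted p = 0.00778) and had 0.02 against L5 controls (adjusted p = 0.916).

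**Figure D4:**
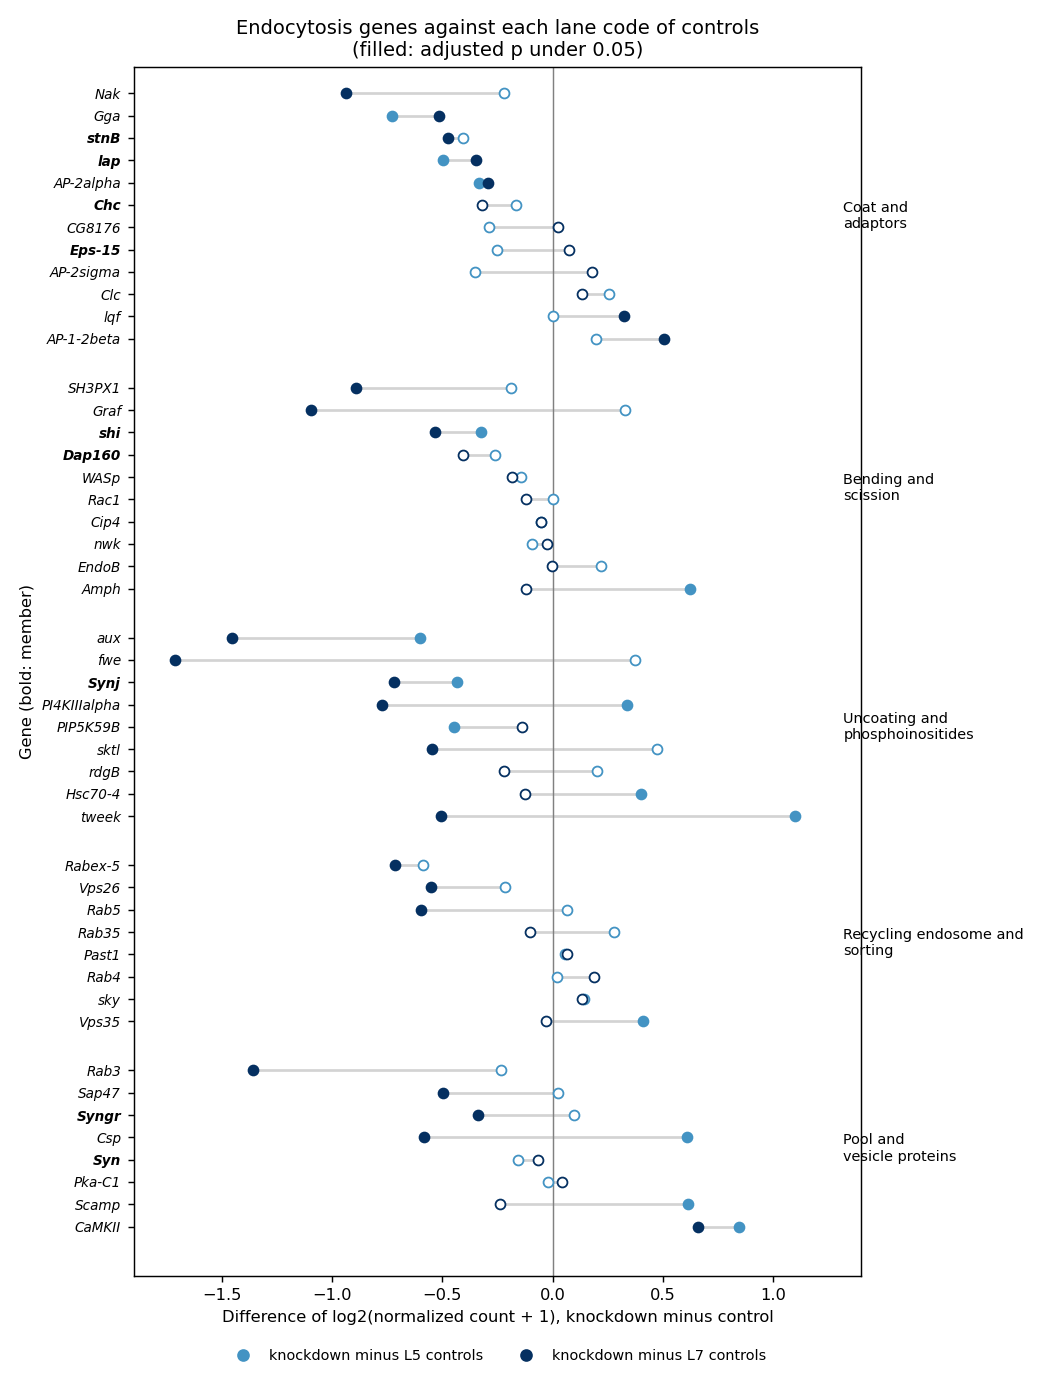
Differences of log2(normalized count + 1) between knockdown and L5 controls (light blue) and between knockdown and L7 controls (dark blue) for the 9 members (bold) and 38 other pathway genes, grouped by role. Filled points passed an adjusted p of 0.05, and grey lines join the 2 values of a gene. The members Synj, shi and lap and the other pathway genes Gga, AP-2alpha and aux have both points filled below 0, while the gaps are widest for fwe, tweek and Graf.

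The vesicle fusion machinery, read from a list of 13 with 12 tested, gave 2 genes that rose and none that fell, beside 3.47% and 2.63% of all genes. They were nSyb, by 1.30 ± 0.16 on the log2 scale (limma, adjusted p = 0.0064), and the NSF gene comt, by 0.58 ± 0.12 (adjusted p = 0.0282). The call of nSyb ended without either knockdown library (adjusted p up to 0.106 over the alternatives), and that of comt ended there, without control replicate 1, 4 or 5 and with replicate blocks (adjusted p up to 0.246). The median log2 difference of the fusion list was 0.04, beside -0.35 for the endocytosis and pool members. The difference between the lists was not tested, and both lists were chosen with earlier results of these data known.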

How the data were processed

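Brains of 2 knockdown and 5 control libraries were profiled with CEL-seq2 adapted for bulk RNA, per the labels' protocols, which reads 3' ends of polyadenylated RNA. The submitters' processing notes name STAR and dm6. How reads were counted (tool, annotation, strand, molecular identifiers) is not given in the sources used here. Gene counts normalized by the authors were deposited, and are treated as a signal. Dividing each library by its smallest step gave whole numbers for 100% of values on intact lines (within 0.001), and their totals, called reads, are the depth (3260649 to 5546121). Left out were 2139 misplaced lines, 1 line with a damaged name and 402 columns that belong to no sample, which left 14476 genes. The deposited columns, which also hold the misplaced lines, did not pass as whole counts. For that reason planned count tests were not run, although the intact lines gave whole numbers, and limma on the log2 scale was used as planned. Of count methods, only voom was run on the reads recovered from intact lines, as an alternative.

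Groups and replicate numbers came from source names, and lane, title number and day from titles. Values were transformed as log2(value + 1), a scale that understates changes of low genes. Genes with a mean of at least 10 (7287) were fitted in limma 3.58.1 (R 4.3.3; lmFit and eBayes with a trend), as 2 groups and as 3 groups (knockdown, L5, L7), with Benjamini-Hochberg adjustment over all genes and a threshold of 0.05. The fit was tested on simulated data that held no lane or date differences, so that test does not cover them. Alternatives were pseudocounts of 0.5 and 5, a mean of at least 50 or no minimum, quantile normalization, voom on recovered reads, leaving out each library, averaging same-titled controls, replicate blocks and single lane codes. Positions come from the Ensembl BDGP6 annotation, and lists were matched by symbol or RefSeq synonym (assembly Release 6 plus ISO1 MT). The members and lists were chosen with earlier results of these data known. Named were all members, mbl, list genes past the test, and the 3 most abundant other genes of each role. Levels are not divided by length, since 3' reads do not scale with it.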

Additional observations from a re-analysis of the deposited data

How the results depend on the processing

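The count of 445 changed genes became 1158 with log2 values of same-titled controls averaged, 1084 with L5 controls only and 2410 with L7 controls only, and lay between 1 and 667 when one library was left out. The 1 member past the test (Synj) became 0 with no filter on the mean and 0 with voom, an alternative chosen after seeing the data (4 members at an unadjusted p under 0.05 in both), 2 with quantile normalization (Synj and shi), 3 with same-titled controls averaged (Synj, shi and lap), 5 with L7 controls only, 1 (lap in place of Synj) with L5 controls only, and 0 to 2 when one library was left out. The 2 pathway genes became 1 with voom, 8 with averaged controls, 7 with L5 controls only, 19 with L7 controls only, and 0 to 6 without one library. Members lower than L5 controls numbered 5 with quantile normalization and 2 without control replicate 1, 4 or 5, against 3. Over all genes, in either direction, these counts were 1701 and 1285 to 1488, against 1571. Members lower than L7 controls numbered 3 with no filter, 3 with quantile normalization and 3 or 4 without control replicate 1, 4 or 5, against 5. Over all genes, in either direction, these counts were 2249 (of 12051 tested), 2477 and 1954 to 2109, against 2445. Members that differed between L5 and L7 controls numbered 1 without control replicate 1, 4 or 5, against 3, beside 1568 to 1686 genes, against 2057. Quantile normalization called Eps-15, Syn and lap there, all higher in L5, in place of Eps-15, Synj and Syngr, beside 2120 genes. The log2 difference of Eps-15 changed sign with L7 controls only (0.0726) and lay between -0.115 and 0.000443 when one library was left out, above 0 without knockdown replicate 1, and that of Syngr with L5 controls only (0.0973). The cause was not tested in any of these. Pseudocounts of 0.5 or 5 and a mean of at least 50 left the member call with Synj alone. Over all genes, those past the test against all controls numbered 490 with quantile normalization and 344 with voom, of 7287 tested. With no filter on the mean they numbered 499 of 12051. edgeR, DESeq2 and voom with TMM were not run.

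A replicate block on title numbers gave 51 genes, 0 members and 0 pathway genes (4 members and 4 pathway genes at an unadjusted p under 0.05), which ended the calls of Synj, Gga and CaMKII (limma, adjusted p = 0.133, 0.112 and 0.0733). One on source name numbers gave 120, 0 and 1 (aux), with adjusted p = 0.24, 0.274 and 0.0858 for Synj, Gga and CaMKII, and 1 member at an unadjusted p under 0.05. The labels do not say that a number marks a shared source, and 2 shared numbers are too few to decide it from correlations. Summed photoreceptor markers were higher in the library titled 3 than in that titled 2 in every lane code, although norpA was not in knockdown and L5 libraries. Deviations from group means correlated between -0.0291 and 0.14 for the same title number and at 0.102 and 0.14 for the same source name number.

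Counting error limits Dap160 most, and 2 knockdown libraries in 1 lane limit every comparison.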

Other observations

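Among the 8 uncoating and phosphoinositide genes other than Synj, 7 were lower in L5 than in L7 control libraries past the test (limma, adjusted p under 0.05), although both carry the same genotype, beside 16.9% of all genes tested. The median log2 difference of these 8 genes was -0.93, that of all genes was 0.02. The largest was that of fwe (-2.09), followed by tweek (-1.61), a gene linked to membrane lipids and vesicle retrieval, and PI4KIIIalpha (-1.11). Of the 6 pool and vesicle-associated genes, 4 were lower in L5 controls, among them the cysteine string protein gene Csp (-1.19), a chaperone of the vesicle, and Rab3 (-1.12). For tweek and Csp the knockdown libraries lay between the lane codes, higher than L5 controls (1.10 and 0.61) and lower than L7 controls (-0.51 and -0.58), past the test in both directions. These genes were singled out after their values were seen.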
